A study of Rattus norvegicus with 6 samples.

Results

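The 39 genes described here make the proteins that copy DNA in S phase, out of 17525 genes measured. They were chosen by name, as rows of the deposited table whose symbol is that of a known replication gene, and all 39 were found. The RNA came from primary granulosa cells of the rat ovary, which line the follicle and feed the oocyte. The series holds 6 libraries of poly(A) RNA, 3 titled ATR and 3 titled Control. Its title names atrazine, a herbicide, given over a long time, but ATR is not spelled out, and neither a dose, a duration nor the exposed material (rats or cultures) is stated. The animals were 21-day-old SD rats that had received 60 IU of PMSG, a gonadotropin that makes follicles grow, and their ovaries were taken 48 h later. The dispersed cells were then cultured in medium with serum, insulin and transferrin. Only the 3 ATR libraries were read, and the Control libraries are not analysed here. No value below is therefore an effect of an exposure. The results are the levels of these genes in ATR cells and the differences between ATR 1, ATR 2 and ATR 3. Nothing states that they are separate animals or cultures, so p-values measure only the spread between these libraries, which may be technical.

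DNA replication starts at origins that the origin recognition complex marks. In G1, CDC6 and CDT1 load the MCM2-7 ring there, which is called licensing, and geminin blocks a second loading by binding CDT1. In S phase CDC45 and GINS turn the ring into the active helicase, polymerase alpha-primase lays down primers, and polymerases delta and epsilon extend them while held by the PCNA clamp. In the ovary, granulosa cells divide quickly in growing follicles and leave the cell cycle after the ovulatory surge. Many replication genes are known targets of E2F transcription factors, which the retinoblastoma protein holds back until late G1.

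The submitters identified the cells by staining for the follicle-stimulating hormone receptor, and its gene Fshr had 7.38, 5.25 and 4.77 TPM (transcript level scaled for transcript length and library size) in the libraries ATR 1, ATR 2 and ATR 3. Of 13 granulosa markers, 10 reached 1 TPM, the lowest of them Cyp11a1 at 1.02 TPM. Inha, the inhibin alpha chain, had 443 ± 73.0 TPM and the transcription factor Foxl2 had 55.1 ± 7.88 TPM (SD, n = 3). The defining genes Cyp19a1 (aromatase), Lhcgr and Amh were nearly absent, with 1, 1 and 2.33 estimated reads for Cyp19a1 in ATR 1, ATR 2 and ATR 3. Some markers of other cell types stood far above Inha. The smooth muscle and pericyte markers Tagln and Acta2 averaged 10890 and 5496 TPM, and the surface epithelium marker Upk3b averaged 1403 TPM. The other markers found in these lists lay below Inha, such as Mcam at 204, Cnn1 at 183 and Notch3 at 1.34 TPM. Of 9 surface epithelium markers 6 reached 1 TPM, while Krt19, Epcam and Muc16 averaged 0.137, 0.333 and 0.167 TPM. Tagln had the highest level of all genes measured. Libraries held between 18677212 and 19170552 reads assigned to genes.

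All 39 replication genes were expressed. Each had a mean of at least 1 TPM, against 71.4% of all genes measured, and 25 (64.1%) reached 10 TPM, against 50.2% of all genes. At higher levels the order of the shares turned, where 4 (10.3%) reached 50 TPM, against 20.3% of all genes, and 0 reached 100 TPM, against 10.7%. These shares were not tested. Their median was 15.96 TPM, beside 10.1 TPM over all 17525 genes and 17.98 TPM over the genes within the members' range of reads. The members ran from rank 2119 to rank 11534 by mean level. Together they held 817, 790.5 and 911 TPM in ATR 1, ATR 2 and ATR 3, so the sum was highest in ATR 3. The highest level was that of Pcna, the sliding clamp, and the lowest that of Gins3, a GINS subunit, a range of 2.24 to 88.95 TPM. In order of level the genes after Pcna were Rrm2, Tyms, Rpa1 and Rrm1. The ranges of Pcna and Rrm2 overlapped across libraries, with 83.3 TPM in the lowest Pcna library and 88.6 TPM in the highest Rrm2 library, although Pcna was the higher within each library. The next neighbours were closer in level but did not overlap, with 55.8 TPM in the lowest Tyms library and 55.1 TPM in the highest Rpa1 library. The counts of 7 members (Cdc6, Gins2, Gins3, Orc1, Prim1, Prim2 and Rfc5) were not whole numbers, so reads may be divided between these rows and others and their levels are less certain.

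**Figure D1:**
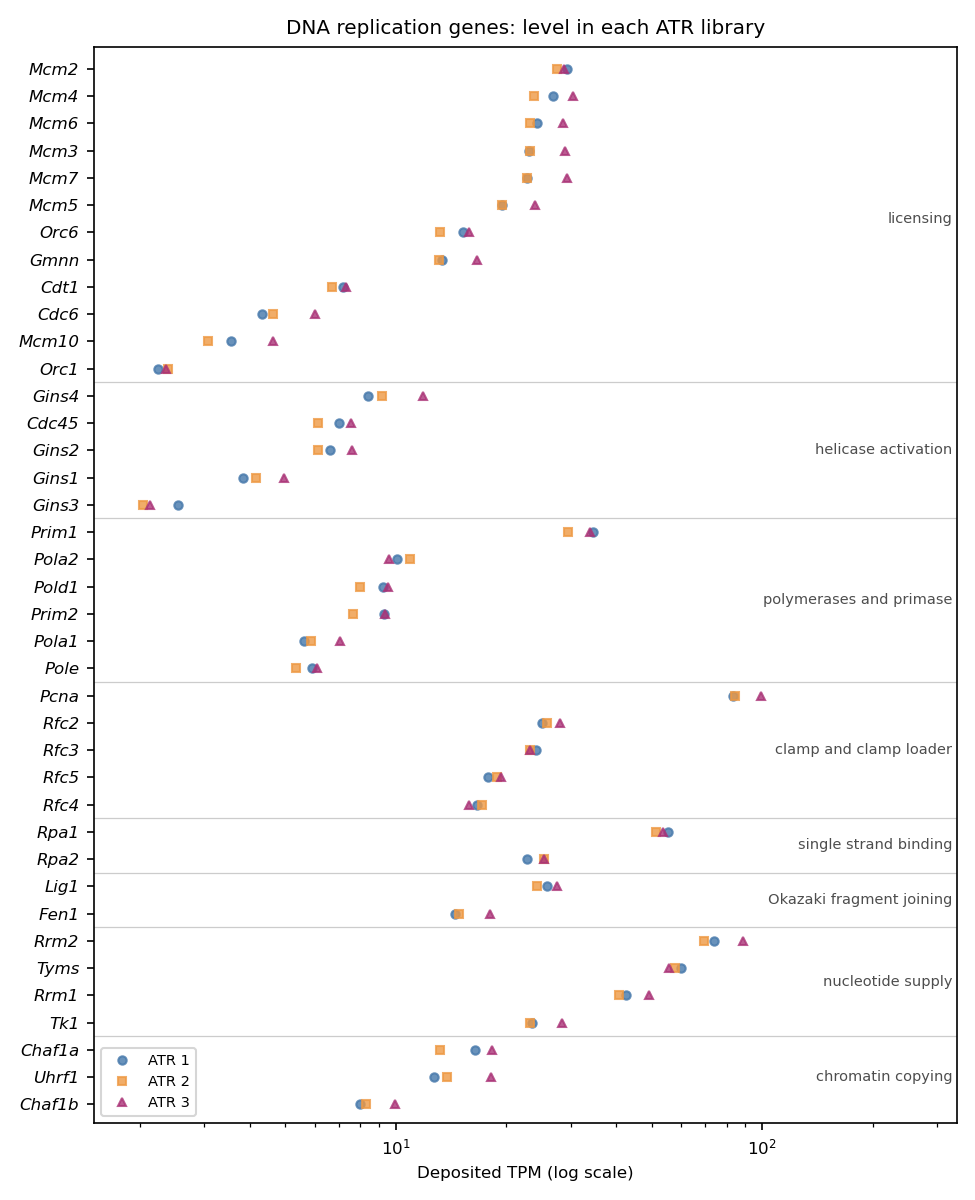
Level of each of the 39 replication genes in deposited TPM (log axis) in the 3 ATR libraries, grouped by role and ordered by mean within a role, with 1 point per library. Pcna and Rrm2 lie furthest to the right, Gins3 and Orc1 furthest to the left, and the triangle of ATR 3 is the rightmost point for most genes.

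Among licensing genes, the 6 subunits of the MCM2-7 ring stood close together. The ring unwinds DNA ahead of the fork and is built from 1 copy of each subunit. Their mean levels lay between 21.0 TPM for Mcm5 and 28.6 TPM for Mcm2, so the highest was 1.36 times the lowest, and their coefficient of variation across subunits was 10.1%. Within single libraries that coefficient was 14.04%, 11.02% and 7.97% in ATR 1, ATR 2 and ATR 3, the smallest in ATR 3. Mcm2 was level across libraries, at 29.3, 27.6 and 28.9 TPM. The other subunits were all highest in ATR 3. In ATR 1, ATR 2 and ATR 3, Mcm7 had 22.9, 22.8 and 29.3 TPM. Mcm3 had 23.04, 23.3 and 28.9 TPM, and Mcm5 had 19.5, 19.5 and 23.96 TPM. Mcm4 had 26.9, 23.8 and 30.5 TPM, and Mcm6 had 24.3, 23.3 and 28.5 TPM.

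The loaders of the ring were lower than the ring itself. Orc1, the largest origin recognition subunit, had 2.24, 2.39 and 2.36 TPM, and Cdc6, the loading ATPase, had 4.31, 4.63 and 6.01 TPM in ATR 1, ATR 2 and ATR 3. Cdt1, the second loader, had 7.19, 6.70 and 7.30 TPM. Its inhibitor Gmnn (geminin) had 13.4, 13.1 and 16.7 TPM and exceeded Cdt1 by 1.86, 1.96 and 2.28 times, so the inhibitor's transcript was the more abundant in each library. Orc6, a small origin recognition subunit, was the highest of the other licensing genes at 14.8 ± 1.36 TPM (SD, n = 3). Mcm10, which helps to start the fork and is no part of the ring, stood at 3.56, 3.07 and 4.63 TPM.

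The promoters of these genes share letters that E2F proteins are known to bind. RefSeq promoter sequences on rat build GRCr8, from 250 bases before to 50 bases after each annotated start, were found by gene ID for 34 of the 39 members, in 36 rows because Uhrf1 has several starts. Mcm4, Rrm2, Cdc6, Gins4 and Orc1 were not matched. Searching both strands, TTTCGCG was present in 10 of the 36 promoters (27.8%), against 0.819% of all 33469 promoters in the table. TTTGGCG was present in 15 (41.7%), against 1.45% of all, and TTTCCCG in 9 (25.0%), against 3.57% of all. TTTGCGC was in 1 (2.78%), against 1.65% of all. At least 1 of these 4 strings was in 25 of the members' promoters (69.4%), which belong to 23 genes, against 12.2% of the 11144 promoters of genes at 1 TPM or more and 7.15% of all promoters. CCAAT, which the NF-Y factor binds, was in 24 (66.7%), against 37.5% of all. The median GC content was 59.8% for the members and 60.7% for the genes at 1 TPM or more. These counts describe letters and not binding, and the members are genes known for E2F control, so the counts are no independent test.

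The stretches below are shown because in 4 of these genes forward and reverse E2F-type strings overlap by some of their letters, and because the ring subunits can be compared side by side. Capitals mark the E2F-type strings named above, on either strand, each run is 50 bases written 5′ to 3′ along the gene, and coordinates are GRCr8.
Mcm2, chr4:122918074-122918123, minus strand: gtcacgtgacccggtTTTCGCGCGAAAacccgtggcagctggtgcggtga
Mcm3, chr9:30733717-30733766, minus strand: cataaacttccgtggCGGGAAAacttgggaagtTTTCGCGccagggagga
Mcm5, chr19:13488585-13488634, plus strand: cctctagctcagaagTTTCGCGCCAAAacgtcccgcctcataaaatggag
Mcm6, chr13:42404457-42404506, minus strand: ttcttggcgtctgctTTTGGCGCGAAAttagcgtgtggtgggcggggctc
Mcm7, chr12:22163196-22163245, minus strand: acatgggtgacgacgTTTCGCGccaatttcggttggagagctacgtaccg
Gins1, chr3:160184880-160184929, plus strand: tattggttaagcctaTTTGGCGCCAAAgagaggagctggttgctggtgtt
Cdt1, chr19:67529231-67529280, plus strand: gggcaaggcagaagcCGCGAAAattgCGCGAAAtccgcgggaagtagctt
Rfc3, chr12:5836550-5836599, plus strand: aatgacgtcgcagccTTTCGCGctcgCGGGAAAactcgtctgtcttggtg
All 5 ring subunits in the promoter table carried such a string, with the overlapping form in Mcm2, Mcm5 and Mcm6, while Mcm3 and Mcm7 carried separate ones. In Mcm2 the overlapping strings begin at position -14 from the annotated start. In Mcm5 the printed pair begins at -213, and a further overlapping pair, not printed, begins at -8. Over all members there were 39 matches, whose first bases lay between positions -248 and 38, with a median of -25.

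For context, the whole Mcm6 promoter window (chr13:42404303-42404602, GRCr8, minus strand) is printed with the same capitals.
Mcm6: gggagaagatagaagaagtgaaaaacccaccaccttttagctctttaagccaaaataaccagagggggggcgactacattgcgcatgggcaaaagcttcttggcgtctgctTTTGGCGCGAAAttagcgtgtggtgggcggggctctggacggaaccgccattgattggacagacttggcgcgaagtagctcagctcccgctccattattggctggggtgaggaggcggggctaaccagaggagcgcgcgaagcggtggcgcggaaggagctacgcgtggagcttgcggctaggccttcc
It holds the overlapping pair once, and 2 reverse-strand CCAAT strings between that pair and the start.

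The helicase activators were low and, within GINS, unequal. Cdc45 had 7.01, 6.13 and 7.54 TPM in ATR 1, ATR 2 and ATR 3. GINS joins 1 copy each of 4 subunits, yet Gins4 averaged 9.80 ± 1.799 TPM and Gins3 2.24 ± 0.267 TPM (SD, n = 3), with Gins2 at 6.76 and Gins1 at 4.31 TPM between them. The ratio of Gins4 to Gins3 was 3.31, 4.49 and 5.55 in the 3 libraries, so the transcripts of this complex were less even than those of the ring in every library. Gins2 and Gins3 have counts that are not whole, and Gins3 rests on 42 to 52.08 estimated reads a library. For Gins2 the 2 deposited measures also diverged, with a coefficient of variation of 6.06% between libraries in its count per TPM, after scaling each library to its median gene.

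Polymerase and primase genes differed in the same way. Prim1, the catalytic primase subunit, was the highest, and ATR 1, ATR 2 and ATR 3 held 34.6, 29.4 and 33.95 TPM of it. Its partner Prim2 had 8.77 ± 0.960 TPM, and the polymerase alpha subunits Pola1 and Pola2 had 6.18 ± 0.762 and 10.2 ± 0.677 TPM (SD, n = 3). Prim1 thus exceeded Pola1 by 6.16, 5.01 and 4.82 times. The catalytic subunits of the replicative polymerases were low, with Pold1 (delta) at 8.90 ± 0.818 and Pole (epsilon) at 5.78 ± 0.394 TPM, and Pole was the lowest gene of this role.

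The clamp was more abundant than its loader. Pcna, the ring that tethers polymerases to DNA, had 83.3, 84.5 and 99.05 TPM in the libraries ATR 1, ATR 2 and ATR 3. The loader subunits Rfc2, Rfc3, Rfc4 and Rfc5 averaged 26.4, 23.6, 16.6 and 18.7 TPM, and the highest was 1.59 times the lowest. Pcna exceeded Rfc2, the most abundant of them, by 3.32, 3.26 and 3.52 times. Rfc3 had the smallest spread of all members, at 24.1, 23.3 and 23.2 TPM. Of the single-strand binding proteins, Rpa1 had 55.1, 51.3 and 53.6 TPM and its partner Rpa2 had 22.8, 25.4 and 25.3 TPM, and Rpa1 exceeded Rpa2 by 2.42, 2.02 and 2.12 times.

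**Figure D2:**
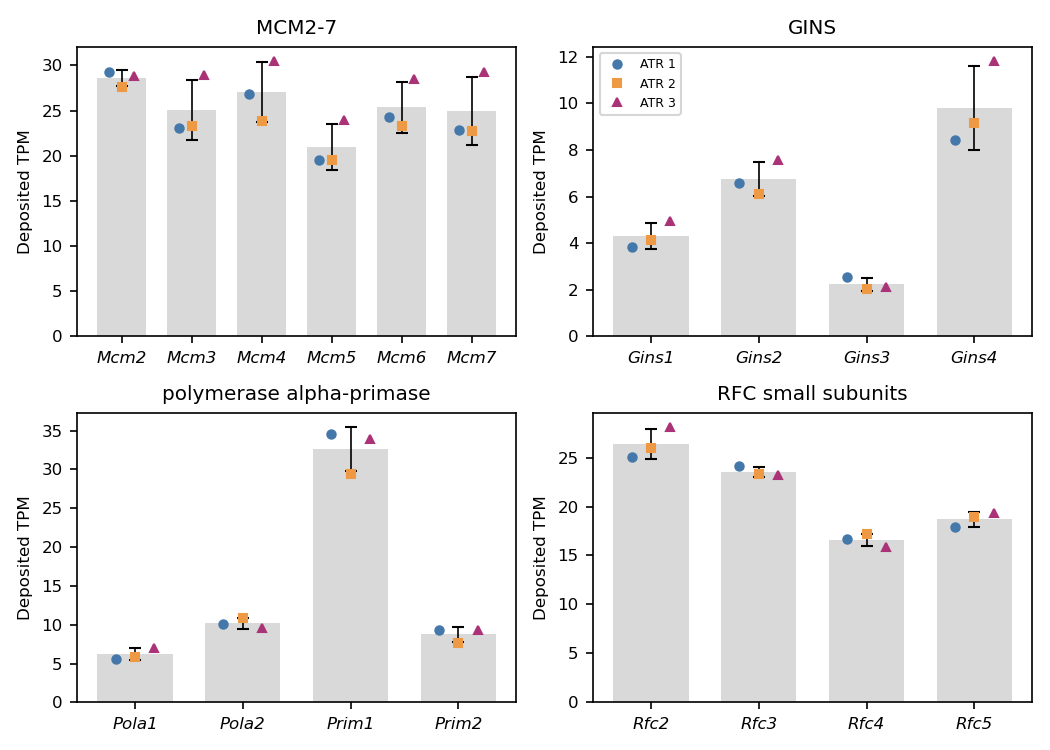
Deposited TPM of the subunits of the MCM2-7 ring, GINS, polymerase alpha-primase and the small clamp loader subunits, with bars at the mean, error bars at 1 SD and a point for each of the 3 ATR libraries. The MCM2-7 bars differ by at most 1.36 times and the clamp loader bars by at most 1.59 times, whereas Gins4 and Prim1 stand well above the other subunits of their complexes.

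Nucleotide supply had the highest median level of the roles, 50.98 TPM over its 4 genes. Rrm2, the small subunit of ribonucleotide reductase that is made in S phase, had 73.97, 69.6 and 88.6 TPM in ATR 1, ATR 2 and ATR 3, and Rrm1, the large subunit, had 42.5, 40.7 and 48.99 TPM. The small subunit exceeded the large one by 1.74, 1.71 and 1.81 times. Tk1 (thymidine kinase) had 23.5, 23.2 and 28.3 TPM. Tyms (thymidylate synthase), which makes the same nucleotide by another route, had 60.0, 57.9 and 55.8 TPM and was lowest in ATR 3, unlike the other 3 genes.

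Okazaki fragment joining and chromatin copying completed the set. Fen1, the flap nuclease, had 14.5, 14.9 and 18.03 TPM, and Lig1, the ligase that seals the fragments, had 25.9, 24.2 and 27.6 TPM in ATR 1, ATR 2 and ATR 3. Chaf1a and Chaf1b encode CAF-1, which places histones on new DNA. Chaf1a had 16.4, 13.2 and 18.3 TPM and Chaf1b had 7.99, 8.27 and 9.98 TPM. Uhrf1, which brings the maintenance DNA methyltransferase to new DNA, had 12.7, 13.8 and 18.2 TPM. All 3 chromatin genes were highest in ATR 3.

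The 3 ATR libraries were then compared gene by gene. A chi-square test of the 3 rounded counts against library sizes scaled by the TMM method asked whether a gene varied beyond counting noise, with Benjamini-Hochberg adjustment over all 13309 genes with at least 30 reads and a threshold of 0.05. It compares libraries and not conditions, and it treats duplicated reads as independent. Of the 39 members, 14 passed, against a background of 23.2% of genes tested and 18.2% of genes within the members' range of reads. Without ATR 3, 1 of the 39 passed. All 14 were highest in ATR 3, where 7.51% of genes tested both passed and were highest in ATR 3. By scaled reads and without regard to the test, 32 of 39 were highest in ATR 3, against 32.0% of genes, and 19 of 39 were lowest in ATR 2, against 33.5%. That cell cycle genes stand high in ATR 3 was known from an earlier account of these data, so these counts describe it and are no separate evidence.

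The differences were of modest size. The reads of ATR 3 were divided by those of ATR 1 and ATR 2 pooled, each scaled for library size, with 95% intervals by the exact Clopper-Pearson method, for counting error alone. The median of this ratio over the members was 0.21 on the log2 scale, beside 0.00 over all genes tested, where the 5th and 95th percentiles were -0.36 and 0.36. The ratio was highest for Mcm10 at 1.42 (interval 1.16 to 1.74), followed by Gins4 at 1.37 (1.06 to 1.75), Cdc6 at 1.36 (1.10 to 1.69) and Uhrf1 at 1.32 (1.19 to 1.48). Gins4 and Cdc6 did not pass the test, with adjusted p-values of 0.108 and 0.0508, and rest on fewer reads. It was lowest for Pola2 at 0.927 (0.779 to 1.10), Gins3 at 0.950 (0.651 to 1.37) and Rfc4 at 0.953 (0.788 to 1.15). Intervals lay above 1 for 18 of 39 members, against 11.3% of genes tested, and below 1 for 0 members, against 10.6% of genes tested. The other 21 held 1.

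**Figure D3:**
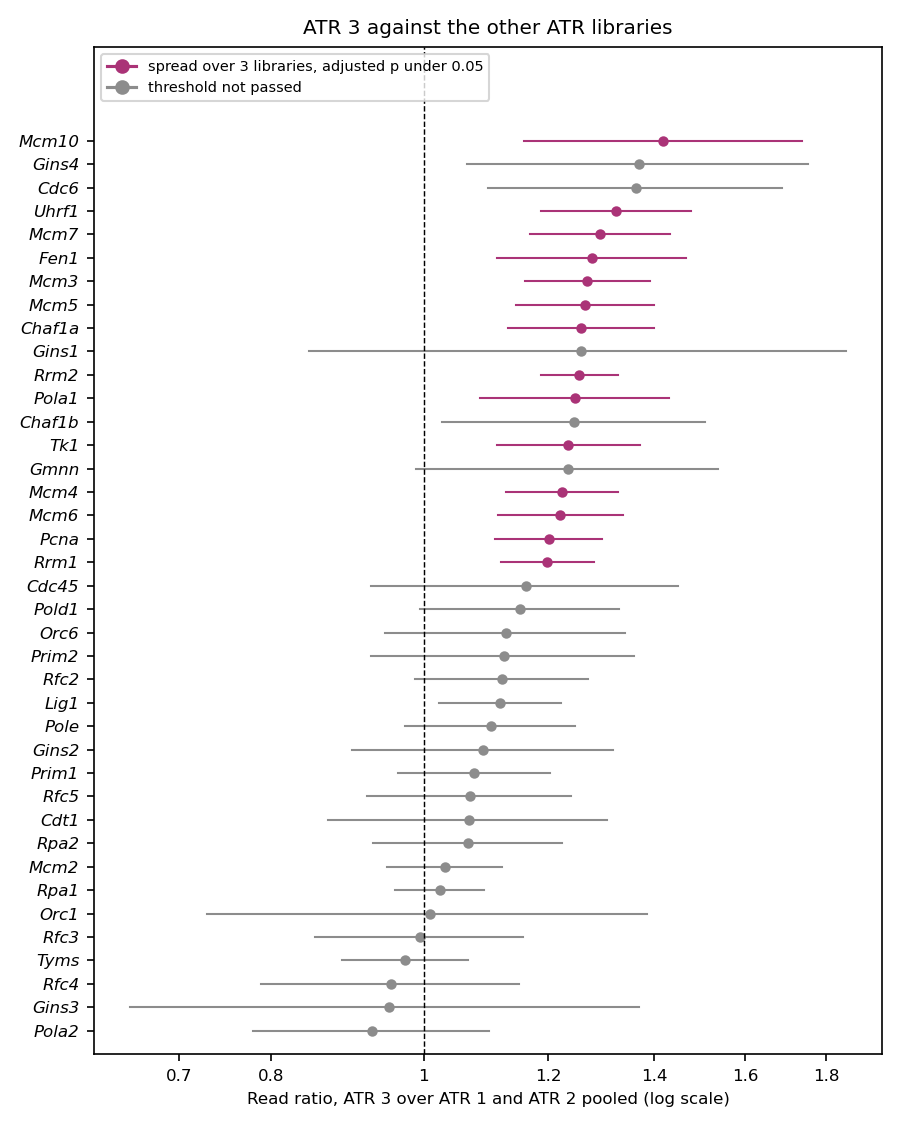
Read ratio of ATR 3 to ATR 1 and ATR 2 pooled (log axis) for each of the 39 members, with exact 95% intervals for counting error. Coloured points mark the 14 genes whose spread over the 3 libraries passed an adjusted p of 0.05, and all of these lie to the right of 1.

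By role, 6 of the 12 genes grouped here as licensing passed, against 23.2% of all genes tested. The 6 licensing genes were 5 of the 6 ring subunits and Mcm10. Mcm10 was placed in this group although it is known to act when the helicase is switched on. Mcm7 had an adjusted p of 3.41e-05, Mcm3 one of 1.31e-05 and Mcm4 one of 1.5e-05 in the chi-square test, and their ratios were 1.29, 1.27 and 1.22. Mcm2 did not pass (adjusted p = 0.686), with a ratio of 1.03 and an interval of 0.948 to 1.12. The intervals of Mcm3 (1.16 to 1.39), Mcm4 (1.13 to 1.33), Mcm5 (1.14 to 1.40) and Mcm7 (1.17 to 1.43) lay above that of Mcm2. That of Mcm6 (1.11 to 1.34) overlapped it, and the difference between subunits was not tested. Mcm2 had 2501 reads over the 3 libraries, more than any other ring subunit.

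Nucleotide supply passed in 3 of 4 cases (75.0%), against 23.2% of all genes tested. The roles are small and differ in their reads, and the difference between roles was not tested. Rrm2 had the smallest adjusted p of all members in the chi-square test, 1.08e-13, at a ratio of 1.26 (1.19 to 1.33). Rrm1 and Tk1 had ratios of 1.20 and 1.24, and Tyms, the exception, had 0.973 (0.887 to 1.07). Of the clamp and loader genes 1 of 5 passed, which was Pcna at 1.20 (1.11 to 1.30). Chaf1a at 1.26 and Uhrf1 at 1.32 passed among the 3 chromatin genes, as did Fen1 at 1.28 of the 2 joining genes and Pola1 at 1.25 of the 6 polymerase and primase genes. Chaf1a and Mcm10 did not pass without ATR 2, nor did Pola1 without ATR 1. For Chaf1a, ATR 3 and ATR 1 alone gave an adjusted p of 0.125 in the chi-square test, and its ATR 2 value was the low one. Cdc45, the 4 GINS genes and both RPA genes did not pass the chi-square test, while at an unadjusted p under 0.05 it picked 1 of them, Gins4. Cdc45 and the GINS genes have 116 to 485 reads over the 3 libraries, and Mcm10 passed with 403. Gins1, with the fewest reads, had a ratio of 1.26 and an interval of 0.846 to 1.85, which holds both 1 and the ratios of the members that passed.

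Pairs of libraries showed where the differences lay. Between ATR 1 and ATR 2, 1 of 39 members passed the same test, against 17.3% of genes. It was Chaf1a, which was lower in ATR 2. Between ATR 3 and ATR 1, 13 members passed, against 14.6% of genes, and between ATR 3 and ATR 2, 13 passed, against 11.9% of genes. ATR 1 and ATR 2 were thus alike in these genes in most cases, although the same pair differed in more genes overall than either pair with ATR 3.

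Members with and without E2F-type letters overlapped widely in this ratio. The 23 members with such letters had a median of 0.29 on the log2 scale and a range of -0.11 to 0.51, and 9 of them passed. The 11 members whose promoters held none had a median of 0.17 and a range of -0.07 to 0.31, and 3 of them passed. Over all genes tested 23.2% passed, and the difference between the groups was not tested. Mcm4, Rrm2, Cdc6, Gins4 and Orc1 had no matched promoter and are in neither group, although Mcm4 and Rrm2 passed. Rfc3 and Cdt1, whose strings are printed above, had ratios of 0.995 and 1.07, and Pcna passed without such a string in its window.

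Related gene lists are given for comparison. Of 46 other genes of the fork, the origins and nucleotide supply, 45 were found. Each reached 1 TPM, their median level was 15.2 TPM, and 10 of 45 (22.2%) passed, against 23.2% of all genes tested, a share near the background. They were led in level by Chtf8, a subunit of an alternative clamp loader, at 96.1 TPM and by Slbp, which binds histone mRNA, at 64.7 TPM. Their median log2 ratio of ATR 3 was 0.12, and 29 of 45 were highest in ATR 3, against 32.0% of all genes tested. Of 30 regulators of the G1 to S transition, 11 (36.7%) passed, with a median log2 ratio of 0.07. The cell cycle inhibitor Cdkn1a was the most abundant. ATR 1, ATR 2 and ATR 3 held 1018, 1055 and 959.9 TPM of it, and by scaled reads it was the only one of the 11 not highest in ATR 3. By TPM, Cdk4 (369, 388 and 386 TPM) was also highest in ATR 2. The 8 E2F genes stood at 1.08 to 33.97 TPM, and 1 of them (12.5%) passed. Of 30 mitosis genes, 20 (66.7%) passed, all highest in ATR 3, with a median log2 ratio of 0.35. For the replication genes these values were 14 of 39 and 0.21, and the difference between lists was not tested.

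**Figure D4:**
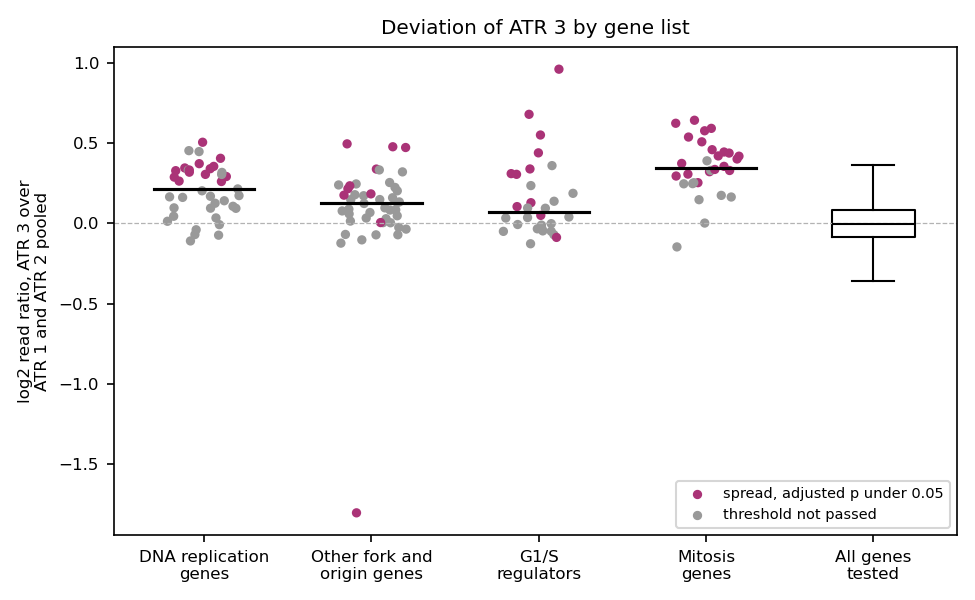
Log2 read ratio of ATR 3 to ATR 1 and ATR 2 pooled for the 39 replication genes, 45 other fork and origin genes, 30 G1/S regulators and 30 mitosis genes, with 1 point per gene and the median as a line. The box shows the quartiles of all 13309 genes tested with whiskers at the 5th and 95th percentiles. The medians are 0.21 for the replication genes and 0.35 for the mitosis genes, and the lone low point among fork and origin genes is Hells at -1.80.

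Cell type markers also varied between the libraries. In bulk RNA, fewer cells of a type and less RNA per cell cannot be told apart, and this holds for cycling cells too. The summed level of the 13 granulosa markers was 3187, 2887 and 2781 TPM in ATR 1, ATR 2 and ATR 3. It was lowest in ATR 3, and 2 of the 13 were highest there. Gja1 made up most of this sum, at 2036, 1863 and 1821 TPM. Inha had 522, 427 and 378 TPM, whereas Inhba had 282, 284 and 280 TPM and Nr5a1 had 60.65, 62.67 and 59.25 TPM. The 9 surface epithelium markers summed to 2305, 2179 and 2251 TPM, most of it from Upk3b. This list was split too. Upk3b (1513, 1316 and 1379 TPM) and Lrrn4 (189, 149 and 164 TPM) were highest in ATR 1. Lowest in ATR 1 were Krt8 (374, 412 and 429 TPM), Krt18 (138, 162 and 168 TPM) and Krt7 (55.0, 88.9 and 79.9 TPM). Msln had 35.25, 51.6 and 30.3 TPM, and the other markers stayed under 1 TPM. The 8 stromal markers summed to 742, 774 and 779.8 TPM. That stromal sum is carried by Col14a1 and Ogn, and 7 of the 8 stromal markers passed the chi-square test. Thy1 had 23.2, 104 and 82.7 TPM in ATR 1, ATR 2 and ATR 3, Prrx1 had 12.03, 46.98 and 29.2 TPM and Pdgfra had 1.36, 5.27 and 3.67 TPM, each lowest in ATR 1. Lum and Gsn were also lowest in ATR 1. The stromal list was split, since Dcn (25.3, 22.8 and 21.2 TPM), Col14a1 (333, 267 and 305 TPM) and Ogn (203.5, 181 and 179 TPM) were highest in ATR 1. Of the granulosa markers 6 passed, and 6 each of the surface epithelium and the smooth muscle markers. Of the leukocyte markers 1 passed, and of the endothelial, theca and oocyte markers 0 did. Over all genes tested 23.2% passed. The test passes small differences in genes with many reads, such as Tagln with 98327 to 103306 estimated reads a library, so these counts are hard to compare between lists. Smooth muscle and pericyte markers, 7 of 8 found, summed to 17684, 16506 and 16342 TPM, lowest in ATR 3, and all 7 reached 1 TPM. Tagln and Acta2 made up most of that sum. Of 6 leukocyte markers 5 were found, and these summed to 91.4, 116 and 114 TPM, while the 5 endothelial markers summed to 3.90 to 4.53 TPM, and the defining genes Pecam1 and Cdh5 had 0 reads in ATR 1. Theca and oocyte markers, 2 and 3 found, summed to at most 0.29 and 0.32 TPM in any library. The part of these differences in the levels of replication genes was not tested.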

How the data were processed

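Messenger RNA was measured in 3 ATR libraries. The authors deposited TPM values and estimated counts per gene and library, per the file headers. Tools listed in the submitters' processing notes are StringTie 2.1.5, HISAT2 2.2.1 and fastp 0.20.1, with the builds Rnor_6.0 and GRCm38 and no role for each. The rule for reads shared by similar genes is not stated. Estimated counts were rounded to whole numbers, since 19.0% to 19.2% of values in a library lay more than 0.001 from one. Library sizes were scaled by TMM in edgeR 4.0.16 (R 4.3.3). Each gene with at least 30 reads was tested by chi-square in scipy 1.17.1 (Python 3.11.15), with Benjamini-Hochberg adjustment over all genes. The procedure was also run on simulated counts that held counting (Poisson) noise alone, which the test assumes. That run checks the working of the procedure and says nothing about the calls in these libraries. Spread is the SD of log2(CPM + 0.5), CPM being reads over scaled library size. DESeq2 1.42.0 gave alternative size factors. Levels were compared between genes by TPM alone. The ATR against Control contrast of the design was not run, because the Control libraries are not analysed here. Values by library were to be given for members that lead or trail their role by mean TPM, that have the extreme ratios of ATR 3, or that passed the test with the 10 largest SDs, and from other lists for the 1 or 2 highest by mean TPM. Other members and genes given by library were added after their values were seen. The members and gene lists were chosen with earlier results of these data known. At these depths, genes with few reads carry wide intervals.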

Additional observations from a re-analysis of the deposited data

How the results depend on the processing

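No paired analysis was possible because only ATR libraries were read, and alternatives meant for a contrast with Control were not run. The 14 members that varied beyond counting noise were the same genes with library totals, with DESeq2 size factors, with no minimum of reads and among genes with whole counts alone, and Cdc6 joined them at a minimum of 100 reads. With 1 library left out the count ran from 1 to 13, and 1 was the value without ATR 3. Pola1 was lost without ATR 1, and Chaf1a and Mcm10 were lost and Cdc6 gained without ATR 2. Over all genes the count was 3087 of 13309 tested. With 1 library left out it ran from 1526 of 12866 without ATR 1 to 2230 of 12868 (17.3%) without ATR 3. Under the other settings it ran from 2125 of 10156 with whole counts alone to 3167 of 13309 with library totals. Of the 39 members, 29 were highest in ATR 3 by deposited TPM and 30 to 32 by scaled reads, against 32.0% of genes tested by TMM-scaled reads. The median log2 ratio of the members lay between 0.20 and 0.27 under every setting tried. By level, 39 members reached 1 TPM, 34 reached 5 TPM and 25 reached 10 TPM. Their median percentile among all genes was 57.6 by TPM and 54.3 by reads without length. The median SD on the log2 scale was 0.15, with 0.13 to 0.15 at other pseudocounts and 0.0537 to 0.179 with 1 library left out, lowest without ATR 3. The median level ran from 14.8 to 16.5 TPM with 1 library left out. Members with the fewest reads were Gins1, Gins3, Orc1 and Gins4, at 116, 139, 181 and 272.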

Other observations

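The genes given here were chosen after their values were seen. Hells, a chromatin remodeller that acts with DNA methylation behind the fork, was lowest in ATR 3. It had 6.67, 5.92 and 1.76 TPM in ATR 1, ATR 2 and ATR 3, with a log2 ratio of ATR 3 to the other libraries of -1.80 and an adjusted p of 1.79e-16 in the chi-square test, from 404 reads in all. Dnmt1, the maintenance DNA methyltransferase, had 21.8, 21.8 and 24.4 TPM, highest in ATR 3. The counts of Hells are not whole numbers, which leaves its level uncertain. The largest positive ratio among G1/S regulators was that of Ccnd1 (cyclin D1), 0.96 on the log2 scale, at 16.7, 28.1 and 42.96 TPM, highest in ATR 3 and lowest in ATR 1. Among replication genes, Orc1 had the least agreement between its deposited count and TPM, with a coefficient of variation of 8.60% between libraries in count per TPM. This coefficient was over 2% for 6 members. Besides Orc1 and Gins2 these were Uhrf1 (4.08%), Mcm5 (3.19%), Gmnn (2.76%) and Fen1 (2.36%), whose counts are whole. Uhrf1, Mcm5 and Fen1 passed the chi-square test, so whole counts alone do not make the deposited measures agree.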
